A study of Homo sapiens with 2 samples.

Results

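The genes described here are 10 genes of the platelet and megakaryocyte lineage, chosen by name for what their proteins do in platelets. They are ITGA2B, ITGB3, GP1BA, GP1BB, GP9, PF4, PPBP, TREML1, SELP and F2R, out of 61806 genes in the count table. They were measured in HEL, an established human erythroleukemia cell line, after 24 h with L1 at 1 µM, a 3,3′-diindolylmethane derivative, or with 0.5% DMSO as the vehicle. The genotype label of the samples is wild type (WT), which does not describe the mutations of the line. Each condition has 1 library of bead-captured mRNA, with 32556872 counts for DMSO and 27135647 for L1. The study asked how L1 affects erythroleukemia cells. With 1 library per condition no test could be run, so each difference given below compares these 2 libraries and has no replicate check.

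In the L1 library, GP1BB mRNA was 2.12-fold lower than in the DMSO library, and it was the only one of the 10 genes past 2-fold. Among all genes kept, 4.83% were past 2-fold in that direction. The counting interval of GP1BB spans 2-fold, and the call is lost when the genes that overlap it are summed. Another 6 genes, ITGB3, SELP, TREML1, GP9, F2R and GP1BA, had lower values by less than 2-fold. Of all genes kept, 50.4% had a log2 ratio below 0, and 28.6% had a counting interval wholly below 0. ITGA2B, the most abundant of the 10 genes, was nearly equal in both libraries. PPBP was also lower, but with 17 counts with DMSO and 8 with L1 a difference was not detectable. PF4 had no count in either library.

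Megakaryocytes are the large bone marrow cells that shed platelets. Platelets stick to a damaged vessel wall through glycoprotein receptors, are activated through receptors for thrombin and other agonists, release the contents of their granules and then bind fibrinogen through the integrin αIIbβ3. Megakaryocytes and red cells arise from a shared progenitor, and HEL cells carry features of both lineages. Transcription factors of the GATA, ETS and RUNX families act at many megakaryocyte genes, and the ETS factor FLI1 is among those most tied to this lineage.

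Promoter windows of RefSeq (GRCh38.p14), 300 bases around each gene's start, were given for 6 of the 10 genes: ITGA2B, GP1BB, GP9, PPBP, TREML1 and SELP. Of these, 4 are printed because the results below turn on them: the gene with the highest level (ITGA2B), the gene past 2-fold (GP1BB), its partner in the same receptor complex (GP9) and the gene with the fewest counts among those detected (PPBP). Capitals mark every match on either strand to letters known from binding sites of 3 factor families, so that a match on the other strand reads as the reverse complement. For the GATA family these letters were AGATAA and, with another first base, TGATAA. For the ETS family they were AGGAAG and, with another first base, CGGAAG. For the RUNX family they were TGTGGT.
ITGA2B, chr17:44389600-44389899, minus strand: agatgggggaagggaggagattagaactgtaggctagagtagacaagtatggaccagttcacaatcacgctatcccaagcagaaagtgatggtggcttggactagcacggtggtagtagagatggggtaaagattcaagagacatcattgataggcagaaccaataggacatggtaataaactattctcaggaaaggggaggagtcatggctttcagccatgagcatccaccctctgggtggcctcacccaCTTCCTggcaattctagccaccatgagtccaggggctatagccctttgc
GP1BB, chr22:19723289-19723588, plus strand: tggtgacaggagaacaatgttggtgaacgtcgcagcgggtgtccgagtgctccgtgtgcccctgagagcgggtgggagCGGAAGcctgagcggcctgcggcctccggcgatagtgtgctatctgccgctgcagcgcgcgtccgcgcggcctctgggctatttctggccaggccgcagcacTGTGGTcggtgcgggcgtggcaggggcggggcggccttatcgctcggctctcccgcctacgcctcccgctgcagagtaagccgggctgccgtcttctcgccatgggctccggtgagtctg
GP9, chr3:129060529-129060828, plus strand: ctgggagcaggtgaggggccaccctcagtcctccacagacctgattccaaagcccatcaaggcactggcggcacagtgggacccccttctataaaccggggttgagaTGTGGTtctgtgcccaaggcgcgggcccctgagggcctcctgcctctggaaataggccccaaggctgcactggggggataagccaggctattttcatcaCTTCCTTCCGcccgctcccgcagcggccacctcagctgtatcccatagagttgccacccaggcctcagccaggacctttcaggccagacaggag
PPBP, chr4:73988141-73988440, minus strand: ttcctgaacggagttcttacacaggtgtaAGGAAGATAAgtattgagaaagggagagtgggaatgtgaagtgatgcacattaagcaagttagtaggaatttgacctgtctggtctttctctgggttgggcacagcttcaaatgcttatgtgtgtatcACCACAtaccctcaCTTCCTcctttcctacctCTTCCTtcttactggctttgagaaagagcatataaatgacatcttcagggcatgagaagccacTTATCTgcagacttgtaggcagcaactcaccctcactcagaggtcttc

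In all 6 windows an ETS match was found, against 46.9% of all 35116 RefSeq windows of that length. RUNX letters were found in 4 of the 6 (GP1BB, GP9, PPBP and SELP), against 13.1% of all windows, and GATA letters in 2 of the 6 (PPBP and SELP), against 16.3%. With the RefSeq start base counted as 0, the single match in ITGA2B lay from 1 to 6. That whole window lies upstream of the ITGA2B gene as placed by GENCODE, which ends at 44389505. In GP1BB the ETS letters lay from -172 to -167 and the RUNX letters from -70 to -65. The GP1BB window lies inside the gene as placed by GENCODE, which starts at 19722945. GP9 held AGGAAG from -44 to -39 and CGGAAG from -40 to -35, which share bases, and a RUNX match from -143 to -138. PPBP held 6 matches, of which the ETS match from -221 to -216 and the GATA match from -217 to -212 share bases. Other letters that these factor families may bind were not searched, so a window without a match may still hold a site. These matches describe letters only, and binding was not measured.

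ITGA2B and ITGB3 encode the α and β chains of the fibrinogen receptor, which reach the surface as a pair. Positions of all genes are from GENCODE release 29 on GRCh38. ITGA2B (ENSG00000005961, chromosome 17, 44372180 to 44389505, minus strand) had 40168 counts with DMSO and 35288 with L1, and its deposited FPKM, a level per length and depth, was 221.9 and 225.9. By FPKM it ranked 130 of 13924 genes with DMSO and 131 with L1. On counts scaled by edgeR's TMM method its log2 ratio of L1 over DMSO was 0.03 (exact 95% counting interval 0.01 to 0.05), and this sign turned to -0.0050 with DESeq2 size factors. So ITGA2B stood at nearly the same level in both libraries, with a direction set by the scaling. All intervals here cover counting error only.

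ITGB3 (ENSG00000259207, chromosome 17, 47253846 to 47311816, plus strand) had 10484 counts with DMSO and 5470 with L1. Its FPKM was 48.3 and 29.2, and its rank went from 865 to 1554. With L1 it was 1.65-fold lower, or -0.73 as a log2 ratio (interval -0.77 to -0.68). In GENCODE its exons overlap those of AC068234.1 on the same strand by 2266 bases, but AC068234.1 had 0 counts in both libraries. EFCAB13 is joined to them only through AC068234.1 and does not itself overlap ITGB3. The 3 genes summed gave a log2 ratio of -0.70, which is no check on reads shared with ITGB3. The 2 chains of the integrin therefore differed in how far the libraries lay apart. The ratio of ITGA2B to ITGB3 in FPKM was 4.59 with DMSO and 7.74 with L1, a difference of 0.75 on the log2 scale (normal 95% counting interval 0.70 to 0.80) that needs no scaling between libraries and, unlike the ratios themselves, no gene length.

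GP1BA, GP1BB and GP9 encode chains of the glycoprotein Ib-IX complex, the receptor through which platelets bind von Willebrand factor. GP1BA, the chain that carries the binding site for von Willebrand factor (ENSG00000185245, chromosome 17, 4932297 to 4935030, plus strand), had 3080 counts with DMSO and 2110 with L1. Its FPKM was 38.5 and 30.6, with a log2 ratio of -0.33 (interval -0.41 to -0.25). CHRNE, a gene on the opposite strand with 268 and 175 counts, shares 97 exon bases with it. GP9 (ENSG00000169704, chromosome 3, 129060767 to 129062406, plus strand) had 1989 and 1325 counts, an FPKM of 71.3 and 55.1, and a log2 ratio of -0.37 (interval -0.47 to -0.27). Both genes were lower in the L1 library by less than 2-fold. Their FPKM ratio, GP1BA over GP9, was 0.540 with DMSO and 0.556 with L1, and the difference of 0.04 on the log2 scale had an interval from -0.09 to 0.17.

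GP1BB, which encodes the β chain bound to GP1BA by disulfide bonds (ENSG00000203618, chromosome 22, 19722945 to 19724771, plus strand), had 1177 counts with DMSO and 480 with L1. In FPKM it was 38.6 and 18.3. The log2 ratio was -1.08, and its counting interval (-1.24 to -0.93) reaches across 2-fold. Set against its partners in the complex, GP1BB lay lower with L1: the FPKM ratio of GP1BA to GP1BB was 0.998 with DMSO and 1.68 with L1, a log2 difference of 0.75 (interval 0.58 to 0.92), and that of GP9 to GP1BB was 1.85 and 3.02, a log2 difference of 0.71 (interval 0.52 to 0.89). The ratios rest on the deposited lengths: with GENCODE exon lengths the FPKM would be 38.7 and 30.8 for GP1BA and 23.8 and 11.3 for GP1BB, while the log2 differences between libraries stay as given.

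The count of GP1BB is uncertain, because every 31-base word of its transcripts also occurs in other annotated genes. SEPT5, a septin gene that starts upstream on the same strand, shares 1006 exon bases with it, and the readthrough gene SEPT5-GP1BB shares 1553. SEPT5 had 1255 counts with DMSO and 542 with L1, a log2 ratio of -0.998 (interval -1.15 to -0.85). SEPT5-GP1BB went the other way, with 49 and 194 counts and a log2 ratio of 2.20 (interval 1.74 to 2.68). How reads were split among these 3 genes is not given in the sources used here. Summed over the 3 genes, the counts were 2481 and 1216, a log2 ratio of -0.82 (interval -0.92 to -0.72), so that no gene of the set was past 2-fold. That sum lay nearer than GP1BB alone to the log2 ratios of GP1BA (-0.33) and GP9 (-0.37), though still below both. The differences from these partners given above thus depend on the count of GP1BB.

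PF4 and PPBP encode chemokines, platelet factor 4 and platelet basic protein, that platelets store in α-granules. PF4 (ENSG00000163737, chromosome 4, 73981077 to 73982124, minus strand) had 0 counts in both libraries. A count of 0 allows up to 3 counts, or 0.0921 CPM with DMSO and 0.111 with L1. Its near copy PF4V1, the gene with which it shares 16.6% of its 31-base words, was at 0 as well. PPBP (ENSG00000163736, chromosome 4, 73987038 to 73988197, minus strand) had 17 counts with DMSO and 8 with L1, too few for an FPKM in the deposited files. The counting interval around its log2 ratio of -0.87 ran from -2.30 to 0.42, so a difference in PPBP was not detectable at this depth. Both chemokine genes of the set, which lie side by side on chromosome 4, were thus at or near no signal in HEL cells.

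SELP and TREML1 encode membrane proteins of the α-granule that move to the platelet surface on activation. P-selectin, encoded by SELP, lets platelets tether to leukocytes. SELP (ENSG00000174175, chromosome 1, 169588849 to 169630193, minus strand) had 3447 counts with DMSO and 1906 with L1, and an FPKM of 31.1 and 19.9. With L1 it was 1.56-fold lower, or -0.64 as a log2 ratio (interval -0.72 to -0.56). TREML1, a receptor that binds fibrinogen (ENSG00000161911, chromosome 6, 41149342 to 41154337, minus strand), had 148 and 69 counts, an FPKM of 3.11 and 1.68, and a log2 ratio of -0.89 (interval -1.32 to -0.47). SELP was 10.0 times TREML1 in FPKM with DMSO and 11.9 times with L1, a log2 difference of 0.25 whose interval from -0.17 to 0.67 includes 0. Neither gene overlaps another gene or shares a 31-base word with one.

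F2R encodes PAR1, the receptor that thrombin activates by cutting it. F2R (ENSG00000181104, chromosome 5, 76716043 to 76735781, plus strand) had 21740 counts with DMSO and 14484 with L1. Its FPKM was 172.2 and 133.0, its rank 181 and 247, and its log2 ratio -0.37 (interval -0.40 to -0.34). AC025188.1 on the opposite strand, with 14 and 2 counts, shares 39 exon bases with it. F2RL2, which encodes the thrombin receptor PAR3, was nearly equal in both libraries, with an FPKM of 108.3 and 111.0. The FPKM ratio of F2R to F2RL2 was 1.59 with DMSO and 1.20 with L1, a log2 difference of -0.41 (interval -0.46 to -0.36).

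**Figure D1:**
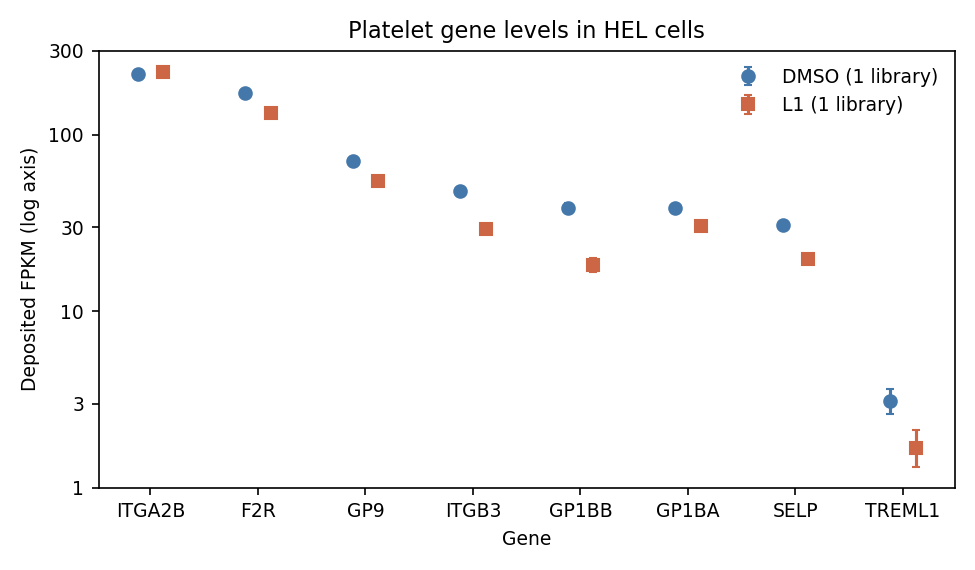
Deposited FPKM on a log axis for the 8 platelet genes listed in the FPKM files, in the DMSO library (circles) and the L1 library (squares), 1 library each. Bars are exact 95% counting intervals, mostly smaller than the symbols; ITGA2B and F2R stand highest and TREML1 lowest in both libraries, and GP1BB shows the widest gap among genes above an FPKM of 10.

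By FPKM the order in the DMSO library was ITGA2B, F2R, GP9, ITGB3, GP1BB, GP1BA, SELP and TREML1. In the L1 library it was ITGA2B, F2R, GP9, GP1BA, ITGB3, SELP, GP1BB and TREML1, which on the deposited lengths puts GP1BB in the fifth place with DMSO and the seventh with L1. Neighbours whose counting intervals overlap were GP1BB and GP1BA with DMSO, GP1BA and ITGB3 with L1, and SELP and GP1BB with L1. The place of 2 genes also depends on the length used. The deposited FPKM of ITGB3 implies a length 1.55 times its GENCODE exon length, and that of GP1BB one of 0.618 times, while for the other 6 genes the factor was 0.977 to 1.03. With GENCODE lengths ITGB3 would be 75.1 and 45.4 and GP1BB 23.8 and 11.3, which puts ITGB3 above GP9 (70.4) in the DMSO library and GP1BB below SELP (31.1 and 19.9) in both, so that its place is the seventh in each. Summed over the 8 genes, FPKM was 625.0 with DMSO and 513.7 with L1. The share of ITGA2B in that sum was 35.5% and 44.0%, and that of F2R was 27.5% and 25.9%.

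**Figure D2:**
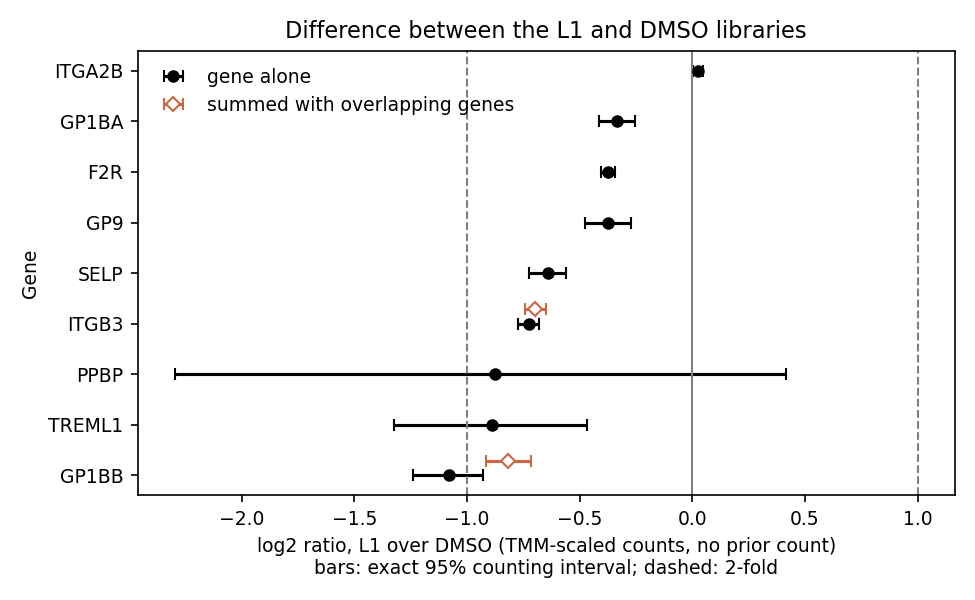
Log2 ratio of L1 over DMSO for the 9 platelet genes with enough counts, with exact 95% counting intervals. Open diamonds give the ratio after summing genes whose exons overlap on the same strand, directly or through another gene. All points but ITGA2B lie left of 0, only GP1BB lies past the dashed 2-fold line, and its diamond (-0.82) lies inside it.

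Of the 10 genes, 9 had at least 10 counts in at least 1 library and PF4 did not. None was at least 2-fold higher with L1 and 1 (GP1BB) was at least 2-fold lower, on TMM-scaled counts with a prior count of 2. Among all 18123 genes kept by the same minimum, 7.12% were past 2-fold upward and 4.83% past 2-fold downward. Of the 9, 8 had a log2 ratio below 0, as did 50.4% of all genes kept. Their median was -0.64, with a range from -1.08 to 0.03, and the median over all genes kept was -0.0040.

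The interval of the log2 ratio lay wholly below 0 for 7 of the 9 genes, against 28.6% of all genes kept. Such a count rises with depth, and 8 of the genes had at least 100 counts. Among genes with at least 100 counts the interval lay wholly below 0 for 7 of 8 of the platelet genes and for 36.7% of all, and 1 of 8 was at least 2-fold lower against 2.92% of all. Of these 8 only TREML1, with 148 counts with DMSO, lay near that minimum, so the 36.7% is not matched to them for depth. Across TMM, total count, upper quartile and DESeq2 scaling the log2 ratio stayed between -0.76 and -0.68 for ITGB3, and between -0.67 and -0.59 for SELP. In these bulk libraries fewer cells with platelet features and less RNA per cell cannot be told apart.

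**Figure D3:**
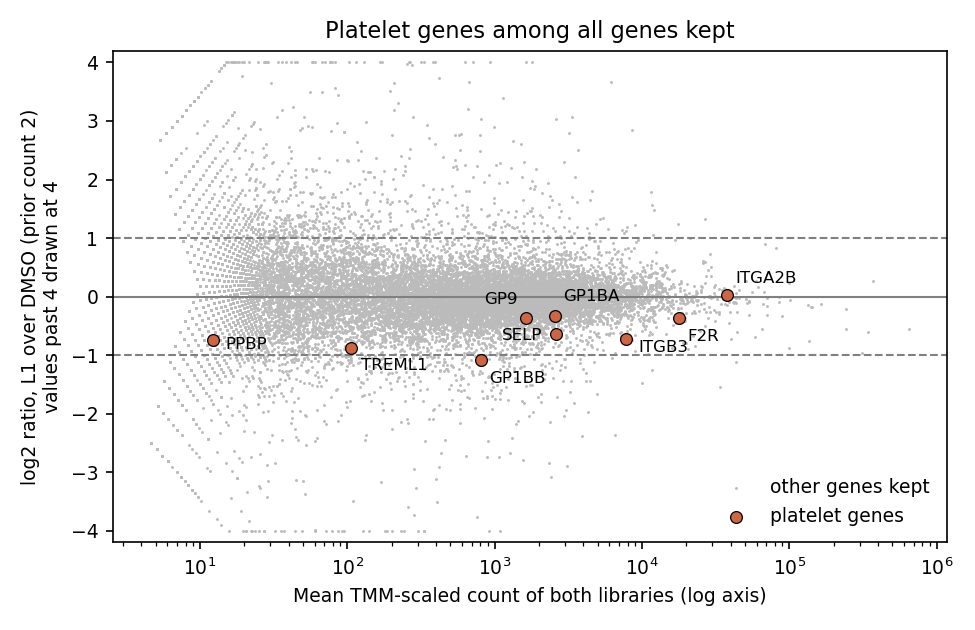
Log2 ratio of L1 over DMSO (prior count 2) against the mean TMM-scaled count of both libraries on a log axis, for the 18123 genes kept (grey) and the 9 platelet genes (filled circles). Dashed lines mark 2-fold; ITGA2B lies on the zero line, and the other 8 platelet genes lie below it.

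A wider view was taken with 139 other genes in 7 lists of platelet biology, of which 130 had enough counts. Over these the median log2 ratio was -0.06. There were 74 genes below 0 (56.9% of those kept, against 50.4% of all genes) and 56 above it. By at least 2-fold, 2 genes rose (1.54%, against 7.12% of all genes) and 3 fell (2.31%, against 4.83%). The genes that rose were THBS1, which encodes the granule protein thrombospondin-1 (45 counts with DMSO and 89 with L1, log2 ratio 1.20, interval 0.66 to 1.75), and ERG, an ETS transcription factor (15 and 51 counts, log2 ratio 1.98, interval 1.13 to 2.92). JAM3, a junctional adhesion molecule, had 415 and 103 counts and a log2 ratio of -1.80 (interval -2.12 to -1.48). PROS1, which encodes protein S, a cofactor in anticoagulation, had 4194 and 1517 counts and a log2 ratio of -1.25 (interval -1.34 to -1.17). The last was PDGFA, a growth factor chain with 44 and 11 counts, which is named after its values were seen because its counts are below the minimum of 50 set for naming. With a minimum of 100 counts, 0 genes of these lists rose and 2 fell by at least 2-fold. Among all 12365 genes with that many counts, 387 rose and 361 (2.92%) fell.

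Among 16 adhesion receptors, 8 lay above 0 and 8 below, with a median of 0.03. GP6, the collagen receptor, had an FPKM of 60.2 and 48.4 and a log2 ratio of -0.31 (interval -0.38 to -0.25). FCER1G, the signalling chain paired with it, had a log2 ratio of -0.34. ESAM, an adhesion molecule of cell junctions, was nearly equal with a log2 ratio of -0.05. GP5, the chain that joins the Ib-IX complex and is named after its values were seen, had 95 and 53 counts and a log2 ratio of -0.63 (interval -1.14 to -0.13).

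Of 10 receptors for soluble agonists, 6 lay below 0 (60%, against 50.4% of all genes kept), with a median of -0.09. PTGIR, the prostacyclin receptor, had a log2 ratio of -0.24. P2RY12, an ADP receptor, had 0 counts in both libraries and is named for that value. P2RY1, another ADP receptor named after its values were seen, had 3932 counts with DMSO and 2940 with L1. Its log2 ratio was -0.21 (interval -0.28 to -0.14).

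Granule cargo, of which 16 of 22 genes were kept, had a median of -0.10 with 7 genes above 0 (43.8%, against 49.6% of all genes kept). SRGN, the granule proteoglycan serglycin, was at -0.01, TIMP1 at 0.21 and TGFB1 at -0.34. The other 6 cargo genes were under the minimum, among them F13A1, FGA, FGB and PF4V1 with 0 counts in both libraries. These 4 are named for their values, and like PF4 they gave no signal in HEL cells.

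The 23 genes of granule biogenesis and release had a median of 0.00, with CD63, a granule membrane protein, at 0.43, VAMP8 at -0.01 and UNC13D at -0.03. The 26 genes of integrin activation and signalling had a median of -0.07, with 18 below 0 (69.2%, against 50.4% of all genes kept). TLN1, which encodes talin and binds the tail of the β3 chain, was at -0.08, PLEK at -0.06 and GNAI2 at -0.10. For 17 cytoskeletal genes the median was 0.00, with PFN1 at 0.06, CFL1 at -0.37 and TMSB4X at 0.34. None of the genes in these 3 lists was past 2-fold.

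Of 22 megakaryocyte transcription factors with enough counts, 15 lay below 0 (68.2%, against 50.4% of all genes kept), with a median of -0.16. GATA1, shared by red cells and megakaryocytes, was at 0.09 (interval 0.03 to 0.14), TAL1 at -0.50 (interval -0.54 to -0.46) and KLF1, a red cell factor, at -0.08. Named after their values were seen, FLI1 had 15763 and 12403 counts and a log2 ratio of -0.13 (interval -0.17 to -0.10), NFE2 was at 0.45 and MEIS1 at -0.87. ERG was the only one past 2-fold.

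**Figure D4:**
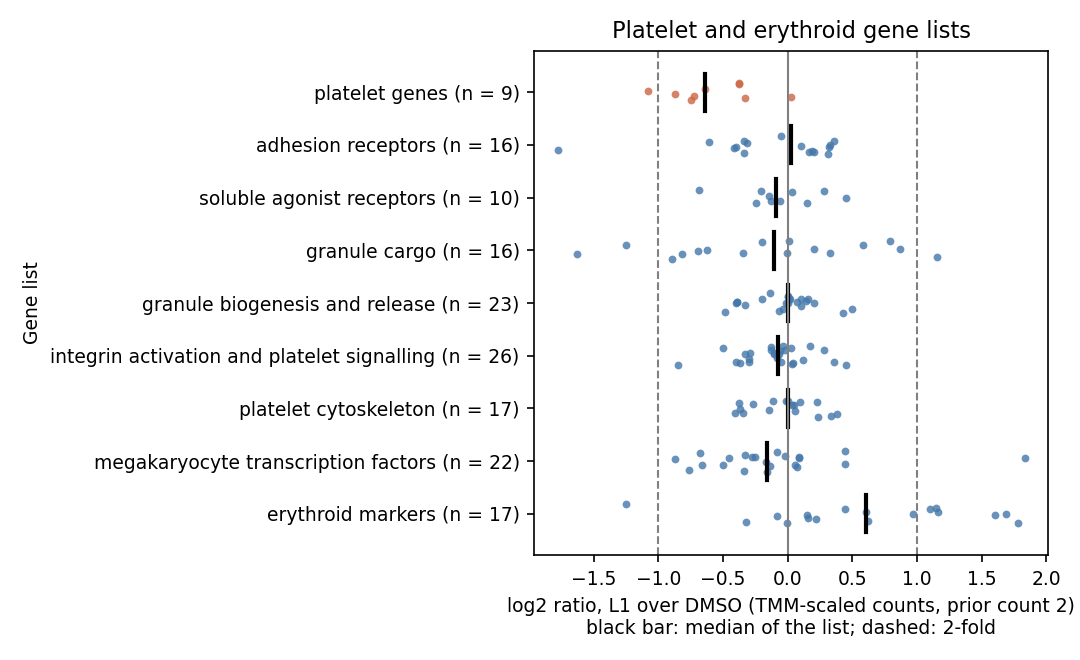
Log2 ratio of L1 over DMSO (prior count 2) for each gene with enough counts in the 10-gene set (top row), the 7 wider platelet lists and the erythroid markers, with a black bar at each median. The medians of the 7 wider lists lie between -0.16 and 0.03, that of the platelet genes is -0.64 and that of the erythroid markers 0.61.

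Most markers of the erythroid lineage, though not all, had values on the other side of 0 from most platelet genes. Of 19 erythroid genes 17 were kept, 13 of them above 0 (76.5%, against 49.6% of all genes kept), with a median log2 ratio of 0.61. Their summed FPKM was 1553 with DMSO and 2317 with L1. Of the 17, 6 were at least 2-fold higher (35.3%, against 7.12% of all genes). Named for their values, these were the globin genes HBG1, HBA1, HBA2, HBE1 and HBZ, and GYPB. Among all 12365 genes with at least 100 counts, 387 were past 2-fold upward. TFRC, the transferrin receptor, was the 1 gene at least 2-fold lower (5.88%, against 4.83%), with 17721 and 6420 counts and a log2 ratio of -1.25. The others below 0, also named for their values, were GYPC (-0.32), KLF1 (-0.08) and HBB (-0.01). Of the 31-base words of HBA1 and HBA2, 82.4% and 83.2% also occur in other genes. HBG2, a fetal globin, was at 0.22, but 61.0% of its 31-base words occur in other genes and the 7 overlapping genes summed gave 0.90, which would also be the value of HBG1 (1.78) and HBE1 (1.61), 2 of the 6 counted as higher. RHAG was at 0.16, and AHSP had 0 counts in both libraries. Their part in the values of the platelet genes was not tested.

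Markers of other cell types were detected in part. Of 13 monocyte and granulocyte markers 5 were kept (LYZ, ITGAM and CD68 had the most counts), their summed FPKM was 13.7 and 12.5, and MPO, ELANE, PRTN3 and S100A9 were at 0 in both libraries. Of 9 lymphocyte markers 3 were kept (CD79A, CD2 and CD79B), and CD3E, CD3D and MS4A1 were among those at 0. Of 7 endothelial markers 6 were kept, led by EGFL7, TIE1 and KDR, with a summed FPKM of 68.3 and 63.4, and CDH5 was at 0. Of 7 fibroblast markers 3 were kept (THY1, PDGFRB and COL3A1), with THY1 at 3494 and 1735 counts. The part of these lists in the values of the platelet genes was not tested. Checked against the lineage they stand for, 8 of the 10 platelet genes had a deposited FPKM in HEL cells, and the chemokine genes PF4 and PPBP did not.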

How the data were processed

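HEL cells were treated with L1 or DMSO for 24 h, and 1 library of bead-captured mRNA per condition was sequenced. Reads were aligned by the authors with HISAT2 2.1.0. The authors deposited whole-number counts, not normalized, for 61806 Ensembl genes. FPKM values, as the authors deposited them, cover 13924 genes, those above 1 CPM in both libraries and carry a library ratio of 1.16. The submitters' processing notes also name fastp 2.0, StringTie and hg38. The counting program, the annotation and the use of strand are not given in the sources used here, so reads over overlapping genes are uncertain.

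Each library was tied to its condition by the labels. One row in each FPKM file that names no gene was left out. TMM factors from edgeR 4.0.16 (R 4.3.3) gave an effective library ratio of 1.16. Other steps used Python 3.11.15, numpy 2.4.6, pandas 2.3.3, scipy 1.17.1 and matplotlib 3.10.9. A gene was kept if either library had 10 counts or more (18123 genes), and a prior count of 2 was used for lists and for the 2-fold threshold. Values of single genes have no prior count and an exact 95% Clopper-Pearson interval from the split of their counts. FPKM intervals are exact Poisson intervals. Differences between genes have a normal interval from the 4 counts. With 1 library per condition, no test and no p-value could be had.

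Positions, overlaps and 31-base words came from GENCODE 29, which holds 58254 of the identifiers, and promoters from RefSeq by symbol. RefSeq starts differ from the GENCODE ends for some genes, among them ITGA2B and GP1BB. One listed symbol, MKL1, was not matched under that name. The genes named are the 10 genes, in each wider list the 3 with the highest FPKM in the DMSO library and those past 2-fold with at least 50 counts, in each marker list the 3 with the most counts, and genes that overlap a member, some of which are not reported here. The members, lists and thresholds were chosen with earlier results of these data known. The alternatives were other scalings, including size factors of DESeq2 1.42.0, log2 FPKM with a pseudocount of 1 or 0.1, prior counts of 0.5 and 5, other minimum counts and thresholds, and summed overlapping genes. The scripts were tested on simulated libraries.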

Additional observations from a re-analysis of the deposited data

How the results depend on the processing

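No paired analysis was possible because there was a single library for DMSO and for L1, and no library could be left out for the same reason. The number of platelet genes at least 2-fold lower with L1, 1 in the report, was 0 when overlapping genes were summed, 0 at a 3-fold threshold, 0 when the whole counting interval had to pass 2-fold, and 5 at 1.5-fold. These 5 include PPBP, whose difference was not detectable. In the wider lists the number at least 2-fold higher, 2 in the report, was 0 with log2(FPKM + 1) and 0 with log2(FPKM + 0.1), which do not cover ERG, 0 with a minimum of 100 counts, which neither gene reaches, 1 at 3-fold, 1 with the whole interval past 2-fold and 5 at 1.5-fold. The number lower, 3 in the report, was 14 of the 130 genes kept at 1.5-fold. Many background genes also passed that looser threshold: of all 18123 kept, 2065 did so downward and 2506 upward. The log2 ratio of ITGA2B reversed with DESeq2 size factors, to -0.0050. For the platelet genes and the wider lists, the other counts of genes past the threshold stayed within 1.5 times the count reported. The background moved more. Over all genes, 1290 higher and 876 lower became 199 and 153 with log2(FPKM + 1). They were 694 and 491 with a minimum of 10 counts in both libraries, and 3544 and 1811 with no minimum. The number of genes kept changes with these settings too. Over the alternatives the median log2 ratio was between -0.67 and -0.49 for the platelet genes (-0.64 in the report) and between -0.09 and -0.0061 for the wider lists (-0.06 in the report). Of 52 values of single platelet genes, 44 lay inside the counting interval, 7 lay outside with the same sign and 1 reversed. Depth limits PPBP, with 17 and 8 counts, and PF4, with none, most.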
